A study of Mus musculus with 3 samples.

Results

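Cytosolic ribosomal proteins are the protein building blocks of the ribosome that translates nuclear messages, and their messages were compared across sorted cells of mouse back skin. The members were all protein-coding genes with a symbol of the form Rpl, Rps or Rplp plus a number, or Rpsa, with symbols ending in -ps left out. This gave 82 of the 49452 gene rows in the files, 50 of the large subunit (Rpl, Rplp) and 32 of the small subunit (Rps, Rpsa). In 79 of them, 47 large and 32 small, the mean level over the libraries was at least 1. Rpl13 was not analysed here, and 6 symbols that match the form but are not annotated as protein coding (Rpl32l, Rpl6l, Rps12l1, Rps3a2, Rps3a3 and Rps4l) were left out.

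The study asked how stem cells of the hair follicle bulge, the resting niche of the follicle, differ from other epidermal cells and how its outer and inner layers differ. Suprabasal bulge cells (S) were sorted as CD34-positive with low integrin alpha 6 (Itga6), basal bulge cells (B) as CD34-positive with high Itga6, and all CD34-negative cells (N) formed the comparison population. All 3 populations came from epidermis freed with thermolysin from the back skin of wild-type C57BL/6 mice aged 7 weeks, in the second telogen (the resting phase of the hair cycle), with no transgene or treatment named. For each population the RNA of 4 mice was combined and amplified from poly(T) and random primers before library making. Each population is thus 1 library, and neither a replicate error nor a p-value can be given. N is a mixture: it holds every CD34-negative cell of the sorted suspension.

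Every ribosome needs about equal numbers of its core proteins, and their genes are scattered over the genome yet are usually used together in growing cells. Their messages are among the most abundant in a cell and typically begin at a cytosine followed by a run of pyrimidines, the 5′ terminal oligopyrimidine (TOP) motif, through which mTOR signalling and the binding protein Larp1 control their translation. In resting hair follicle stem cells protein synthesis is known to be low relative to their dividing progeny, and mice with altered dosage of single ribosomal proteins in skin can show dark footpads and tail.

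The members lay on 19 chromosomes, 14 of them on chromosome 7, 7 on chromosome 11 and 4 on X. RefSeq start regions (GRCm38.p6) were matched by symbol for 62 of the 82 members, 59 of them measured. A run of at least 9 C or T bases on the sense strand, within 50 bases before to 30 bases after the annotated start, was present in 31 of the 59 (52.5%), against 20.7% of 16402 protein-coding genes. Shown here are 80 bases of each of 8 genes chosen after their values were seen: 4 with lower levels in S and B than in N (Rps3, Rps15a, Rps27 and Rpl38), the pair Rpl22 and Rpl22l1, and 2 with higher levels in S and B (Rps10 and Rpl7a). Capitals mark the longest run of C and T where it reached 9 bases, and the annotated start base counts as position 0.
Rps3 (chr7:99483680-99483759, minus strand): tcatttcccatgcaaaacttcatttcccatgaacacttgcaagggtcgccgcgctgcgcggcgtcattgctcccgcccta
Rps15a (chr7:118116118-118116197, minus strand): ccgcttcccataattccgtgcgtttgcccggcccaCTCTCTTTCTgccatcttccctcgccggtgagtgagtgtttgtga
Rps27 (chr3:90213619-90213698, minus strand): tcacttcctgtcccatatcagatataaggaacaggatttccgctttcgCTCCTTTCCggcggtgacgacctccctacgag
Rpl38 (chr11:114668530-114668609, plus strand): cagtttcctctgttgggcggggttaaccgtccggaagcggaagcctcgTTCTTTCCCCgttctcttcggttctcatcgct
Rpl22 (chr4:152325676-152325755, plus strand): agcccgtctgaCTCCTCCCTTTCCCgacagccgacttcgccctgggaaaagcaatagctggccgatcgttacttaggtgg
Rpl22l1 (chr3:28805458-28805537, plus strand): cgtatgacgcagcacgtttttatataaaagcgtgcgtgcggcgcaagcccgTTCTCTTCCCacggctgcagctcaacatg
Rps10 (chr17:27635215-27635294, minus strand): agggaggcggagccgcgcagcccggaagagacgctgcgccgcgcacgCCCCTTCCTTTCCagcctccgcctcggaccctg
Rpl7a (chr2:26910757-26910836, plus strand): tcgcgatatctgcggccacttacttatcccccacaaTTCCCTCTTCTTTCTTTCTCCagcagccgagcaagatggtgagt

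In Rps27 and Rpl38 the run began at position -2 and in Rps10 at position -3, so it spans the annotated start. The run of Rpl22l1 began at position 1, that of Rpl7a (21 bases) at position -14, that of Rps15a at position -15 and that of Rpl22 at position -39. In Rps3 the longest run had 6 bases, and its window holds no capitals. The run thus occurs in genes that were lower in S and B than in N and in genes that were higher, and no match in a window says only that these letters are absent from it.

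**Figure D1:**
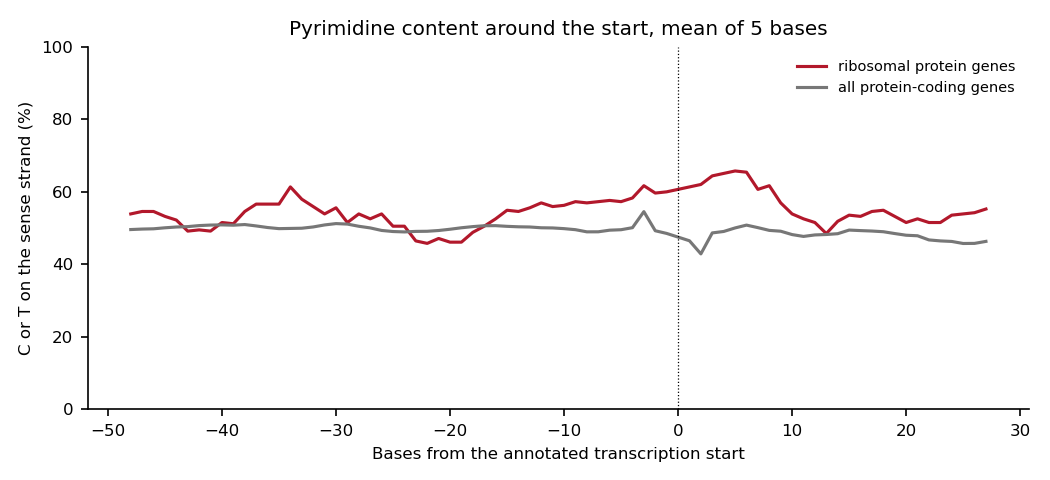
Share of C or T on the sense strand (%, mean of 5 neighbouring bases) by distance in bases from the annotated start, for the 59 measured ribosomal protein genes with a RefSeq start region (red) and 16402 protein-coding genes (grey). At the start base itself C or T stood in 47.5% of the ribosomal protein genes and 23.1% of all genes, and at position 4 in 76.3% and 51.8%.

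The other motifs searched, on both strands of the 300 bases from 250 before to 50 after the start, were spread unevenly. CCGGAAG, the core to which GABP and other ETS factors bind, was found in 24 of 59 members (40.7%) and in 12.4% of all genes. AAGATGG, a core of YY1 sites, stood in 15.3% of members and 6.47% of all genes, and GGGCGG, the GC box of Sp1, in 61.0% and 48.3%. The TATA box TATAAA (10.2% of members, 12.8% of all genes) and the E-box CACGTG bound by Myc and Max (8.47% and 8.10%) were about as frequent in members as in other genes. Members with and without the C/T run had median log2 ratios of -0.30 and -0.36 in S over N and of -0.23 and -0.31 in B over N.

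Levels below are scaled FPKM: the deposited fragments per kilobase of transcript and M fragments (M for mega), divided by a factor per library (0.928 for S, 0.987 for B and 1.11 for N) that brings the libraries to a common middle, the median ratio over genes above 0 in all of them. Log2 ratios were taken after adding 1, and with 1 library per group a gene is called higher or lower at a 2-fold ratio on that scale. The FPKM steps of long single-exon genes correspond to 31.35 M, 32.7 M and 35.35 M fragments in S, B and N. For B this takes FPKM as the unit. Measured members above 0 rested on about 174 to 63943 fragments in S, 212 to 77013 in B and 151 to 120282 in N. Their counting error was at most 7.59%, 6.86% and 8.15% in S, B and N. It leaves out amplification, sorting and differences between mice.

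Messages of the sort genes followed the gates, and N was not gated on Itga6. Cd34 had a level of 214 in S, 144 in B and 0.200 in N. Itga6, the alpha chain of the hemidesmosome integrin, had 32.9 in S, 49.0 in B and 114 in N, so it was lower in S than in B and highest in N. The basal keratin gene Krt14 had 12.7 in S, 275 in B and 585 in N, and the summed level of 11 bulge markers was 4699 in S, 2837 in B and 1160 in N. Krt14 does not stand for keratin genes in general. Krt5 had 954 in S, 805 in B and 813 in N. Krt15, of the bulge markers, had 3620 in S, 1844 in B and 1008 in N, so both were highest in S. Krt1 and Krt10 were, like Krt14, lowest in S and highest in N. Nuclear ribosomal RNA genes summed to 52345 in S, 45173 in B and 6137 in N, and small nucleolar RNA genes to 66476, 42024 and 193707. The mitochondrial ribosomal RNA genes summed to 284929 in S, 196091 in B and 196384 in N. The part of priming and amplification in these sums was not tested, so they are not measures of RNA per cell.

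Ribosomal protein messages were abundant in all 3 libraries. The median level of the 79 measured members was 442 in S, 444 in B and 549.95 in N, and 77 of them had a mean of at least 100. Members held 21.7% of the summed FPKM of nuclear protein-coding genes in S, 23.1% in B and 27.0% in N. The large subunit held 11.4% in S, 12.1% in B and 13.9% in N, and the small subunit 10.3% in S, 10.99% in B and 13.1% in N. Without Rpl22, which is listed at 0 in B, the share was 21.4% in S, 23.1% in B and 26.7% in N. The share was therefore highest in N and close in the bulge libraries. In bulk RNA, fewer cells of a type and less RNA per cell cannot be told apart.

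**Figure D2:**
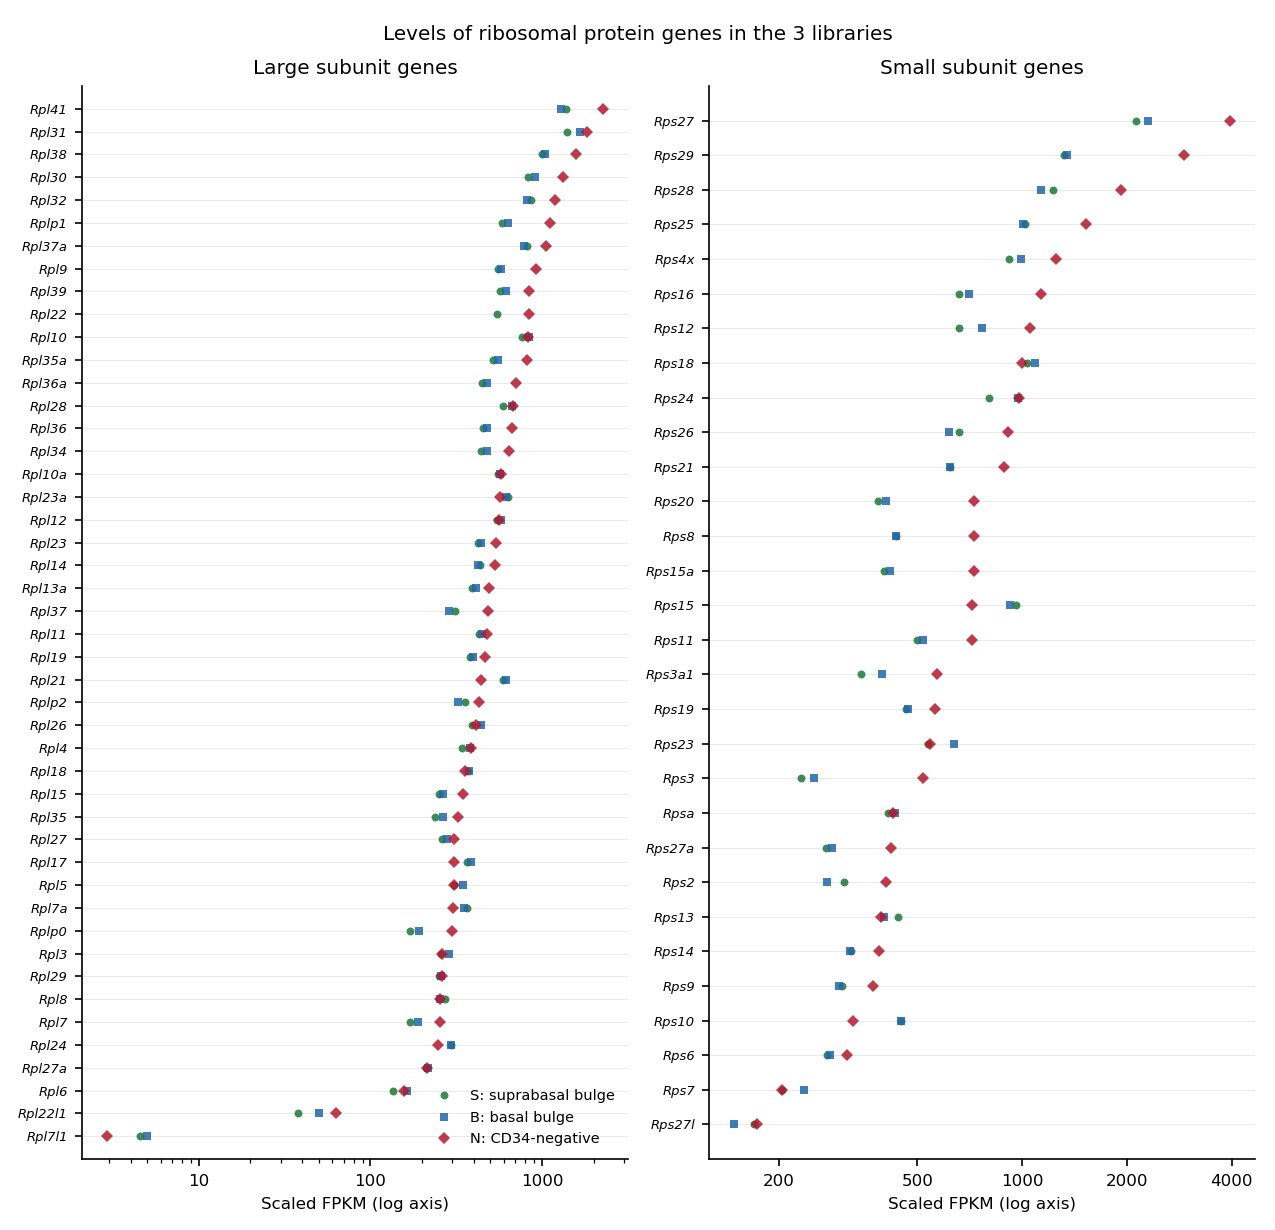
Scaled FPKM (log axis) of 76 of the 79 measured ribosomal protein genes, ordered by the level in N, with large subunit genes on the left and small subunit genes on the right. Green circles are S, blue squares B and red diamonds N, 1 library each. S and B lie close together in most rows with N to their right, Rpl21 and Rps10 are among the genes with N to the left, and Rpl22 has no blue square because it is listed at 0 in B.

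Among the most abundant members were Rps27, Rps29, Rpl41 and Rpl31. Rps27 (ENSMUSG00000090733, chromosome 3, 90212522 to 90213651, mm10), a zinc finger protein of the small subunit, had a level of 2127 in S, 2308 in B and 3960.4 in N. Rpl31 (ENSMUSG00000073702, chromosome 1, 39367842 to 39371911), at the exit of the tunnel through which the new protein leaves, had 1397 in S, 1660.4 in B and 1838 in N. Rps27 and Rpl31 were highest in N and lowest in S. The 5 most abundant members of each library held 18.4% of the summed member FPKM in S, 19.2% in B and 22.9% in N.

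Members were modestly lower in S than in N. Their median log2 ratio of S over N was -0.32, with an interquartile range of -0.63 to -0.03, against a median of 0.02 over all 11580 genes measured and of -0.10 over the 200 other protein-coding genes with a mean of at least 100. No member was 2-fold higher, against 9.57% of all genes, and 2 of 79, Rps3 and Rps29, were 2-fold lower, against 10.9% of all genes. At 1.5-fold, 22 of 79 (27.8%) were lower, against 19.2% of all genes, and 1 was higher, against 18.8%. The ratio was below 0 for 64 of 79 members (81.0%), against 48.2% of all genes. The median was below 0 under all 4 scalings tried and the share of members below 0 ran from 68.4% with equal protein-coding totals to 93.7% without scaling; relative to the median of all genes, the members' median lay between -0.39 and -0.32.

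B over N gave a similar picture with smaller sizes, and it shares the N library with the comparison above. The median over 78 members, Rpl22 left out, was -0.29 with an interquartile range of -0.55 to 0.03, against -0.04 over all genes and -0.19 over the 200 other abundant genes. None was 2-fold higher (7.25% of all genes) and 2 of 78, Rps29 and Rps3, were 2-fold lower (7.1% of all genes). At 1.5-fold, 15 of 78 (19.2%) were lower, close to the 16.7% of all genes, and 2 were higher, against 14.4%. The ratio was below 0 for 55 of 78 members (70.5%), against 52.9% of all genes. That share ran from 59.0% with equal protein-coding totals, through 62.8% with factors from protein-coding genes, to 85.9% without scaling, and the median relative to all genes lay between -0.28 and -0.21.

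The bulge libraries differed little from each other. The median of S over B was -0.06 over 78 members, with an interquartile range of -0.12 to 0.01 and a whole range of -0.40 to 0.19. All genes had a median of 0.06. No member was 2-fold or 1.5-fold apart in either direction. Among all genes 3.89% were 2-fold higher and 5.94% 2-fold lower, and 9.96% and 11.3% were past 1.5-fold. The ratio was below 0 for 71.8% of members and 42.4% of all genes, and for up to 93.6% of members under the other scalings, where the median relative to all genes lay between -0.15 and -0.13. Levels in S and B were within 1.2-fold for 75 of 78 members (96.2%) and for 108 of the 200 other abundant genes (54.0%). Under the other scalings 63 to 71 members and 104 or 105 of the 200 genes were that close.

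The members also varied less among themselves than the other protein-coding genes with a mean of at least 100 did. The interquartile range of their ratios was 0.61 in S over N, 0.58 in B over N and 0.13 in S over B. In the 200 other abundant genes it was 0.95, 0.71 and 0.49 in the same comparisons. Those genes were not matched to the members in level or length, and they include the sort gene Cd34 and Krt14. Of the 200, 120 had 1000 bases or more, against 18 members. In 54 of 78 members both bulge libraries were below N and in 14 both were above N. The remaining members had 1 bulge library on each side of N. The order S below B below N was found in 39 of 78, and in 37 to 58 under the other scalings. These patterns all use the same N library, and the share of all genes that show them is not given here.

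**Figure D3:**
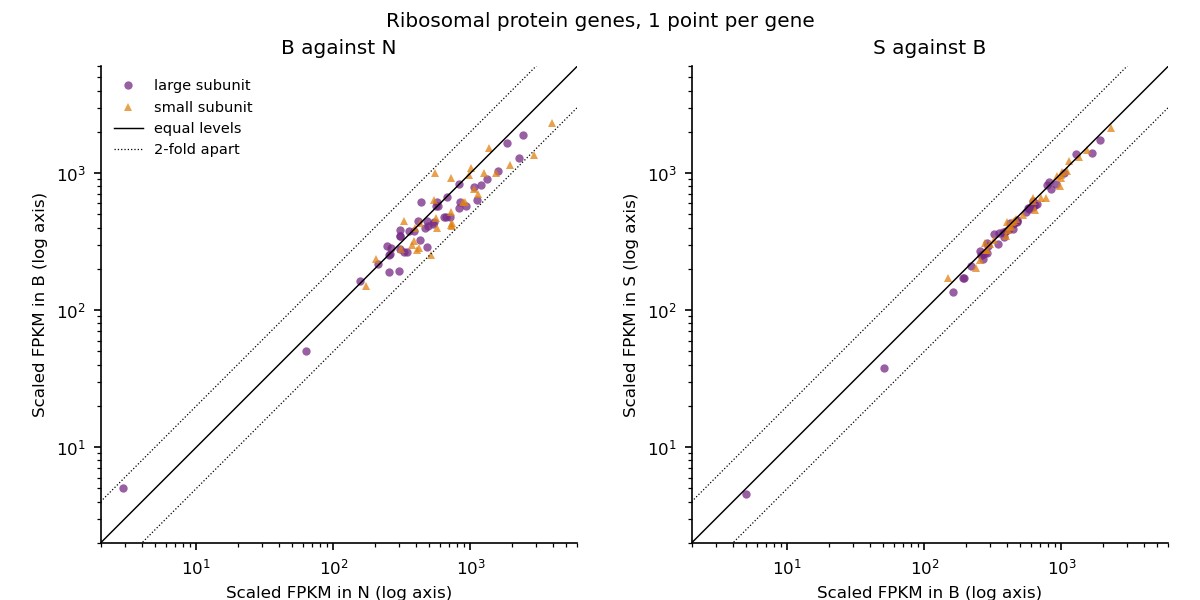
Scaled FPKM of 78 ribosomal protein genes (log axes), B against N on the left and S against B on the right. Purple circles are large and orange triangles small subunit genes, the solid line marks equal levels and the dotted lines a 2-fold difference. Points of S against B hug the line, while points of B against N spread from 2-fold below the line (Rps29, Rps3) to well above it. Rpl7l1, at 1.53-fold after adding 1, is among the points above the line but is not the furthest on that scale.

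The large and small subunits differed by less than the spread of their members. The median of S over N was -0.30 for 47 large subunit genes and -0.42 for 32 small subunit genes, a difference of 0.12. In B over N the medians were -0.23 for 46 large and -0.39 for 32 small subunit genes, a difference of 0.16. In S over B they were -0.07 and -0.04. The interquartile range of either subunit's ratios to N was 0.49 or more, wider than the difference between the subunits. At least 1.5-fold lower in S over N were 23.4% of the large and 34.4% of the small subunit genes, against 19.2% of all genes. In B over N these shares were 13.0% of the large and 28.1% of the small subunit genes, against 16.7% of all genes.

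**Figure D4:**
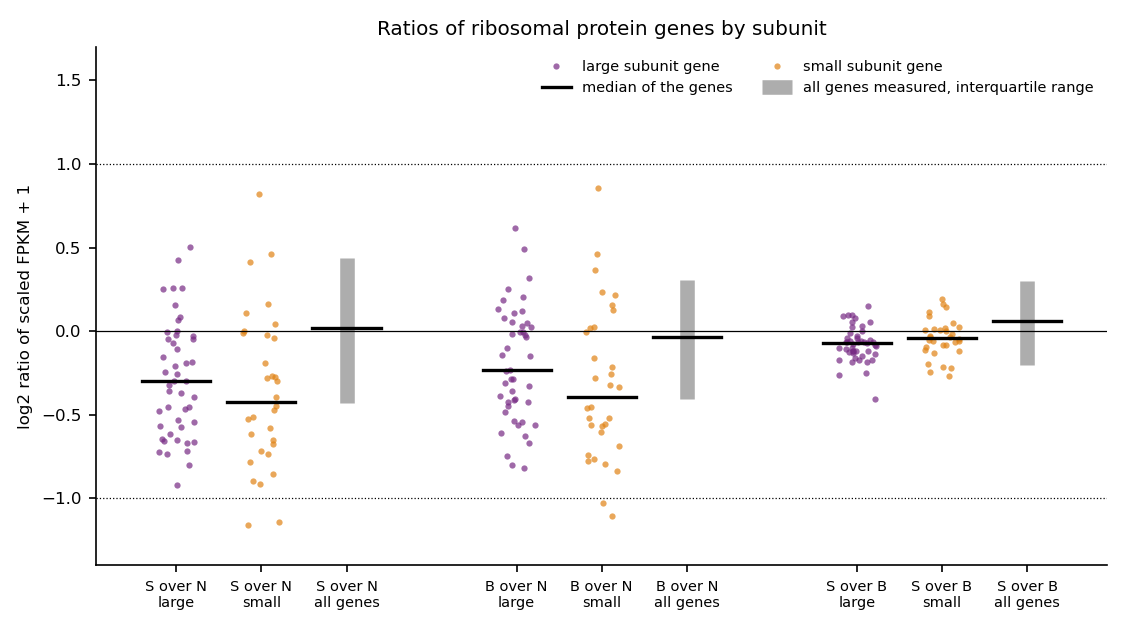
Log2 ratio of scaled FPKM plus 1 for each ribosomal protein gene (points), large subunit in purple and small subunit in orange, in S over N, B over N and S over B, with black bars at the medians. The grey boxes span the interquartile range of all 11580 genes measured and the dotted lines mark 2-fold. Medians of both subunits sit below those of all genes in each comparison, and the points of S over B are the most tightly packed.

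Among small subunit genes the lowest ratios of S over N were those of Rps3, Rps29, Rps20 and Rps27, and the lowest of B over N those of Rps29, Rps3, Rps20 and Rps15a. Rps3 (ENSMUSG00000030744, chromosome 7, 99477896 to 99483738), part of the channel by which the message enters the ribosome and also known as a DNA repair nuclease, had a level of 231 in S, 253 in B and 518 in N. It was 2.23-fold lower in S and 2.04-fold lower in B than in N. Rps29 (ENSMUSG00000034892, chromosome 12, 69157722 to 69159186), a small zinc-binding protein of the subunit head, had 1319 in S, 1351 in B and 2912 in N, which is 2.21-fold lower in S and 2.16-fold lower in B. Both genes were past 2-fold by a narrow margin. With equal protein-coding totals neither was called in B over N.

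Rps20 came next among small subunit genes in both comparisons. Rps20, another head protein, had 385 in S, 408 in B and 728 in N, log2 ratios to N of -0.92 in S and -0.83 in B. Rps27 had log2 ratios of -0.90 in S and -0.78 in B. Rps20 is altered in 1 of the dark skin mouse mutants, as is Rps19, and loss of 1 copy of Rps6 in keratinocytes also darkens skin. Rps19 had 464 in S, 470 in B and 562 in N, and Rps6, the phosphorylation target of S6 kinases, had 275 in S, 280.2 in B and 314 in N. Of these 3 genes, grouped after their values were seen, Rps20 alone was over 1.5-fold lower in S and B than in N.

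Other members of the channel for message entry, Rps2 and Rps9, were less far from N. Rps2 had 309 in S, 276 in B and 406 in N, and Rps9 had 304 in S, 299 in B and 374 in N. Rps15a, another small subunit protein, had 402 in S, 418 in B and 726 in N, log2 ratios to N of -0.85 in S and -0.79 in B. Rps28, near the message exit, had 1229 in S, 1136 in B and 1930 in N.

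Higher than N in both bulge libraries were 14 of 78 members, among them Rps10, Rps15 and Rpl21. Rps10 (ENSMUSG00000052146, chromosome 17, 27630422 to 27636629), a head protein that is ubiquitinated in human cells when ribosomes collide, had 450.1 in S, 449 in B and 327 in N. Rps15, near the decoding centre, had 958 in S, 926 in B and 718 in N. Rpl21 (ENSMUSG00000041453, chromosome 5, 146832890 to 146837032), a large subunit protein, had 590.3 in S, 617 in B and 439 in N. Their log2 ratios to N lay between 0.37 and 0.49. How many members were above N in both bulge libraries depended on scaling, from 5 without scaling to 24 with equal protein-coding totals. The share of all genes above N in both is not given here.

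In the large subunit the stalk was among the groups with lower levels. The stalk is the flexible arm of Rplp0, Rplp1 and Rplp2 on a base with Rpl12 that recruits elongation factors. Rplp1 (ENSMUSG00000007892, chromosome 9, 61913284 to 61914542) had 587 in S, 638 in B and 1111 in N, and Rplp0, often used as a reference gene in PCR, had 171 in S, 193 in B and 299 in N. Rplp2 had 358 in S, 322 in B and 428 in N. The base protein Rpl12 was near equal, with 549 in S, 579.6 in B and 561 in N. The median over these 4 genes, grouped after their values were seen, was -0.53 in S over N and -0.52 in B over N.

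Rpl41 (ENSMUSG00000093674, chromosome 10, 128548114 to 128549305), which encodes a tiny basic peptide that bridges the subunits, had 1373 in S, 1283 in B and 2266 in N. Rpl37, another small zinc-binding protein, had 309 in S, 289 in B and 485 in N. Rpl38, whose loss in the mouse disturbs translation of Hox messages and the body plan, had 994 in S, 1035 in B and 1580.1 in N. These 3 genes lay over 1.5-fold below N in both bulge libraries.

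Rpl5 and Rpl11 bind the 5S ribosomal RNA and, when free, the p53 regulator Mdm2. Rpl5 had 305 in S, 347 in B and 305 in N, and Rpl11 had 431 in S, 447 in B and 479 in N. Neither was 1.2-fold from N in either bulge library. The 8 members along the tunnel and at its exit (Rpl4, Rpl17, Rpl19, Rpl23a, Rpl26, Rpl31, Rpl35 and Rpl39) had medians of -0.24 in S over N and -0.09 in B over N. The 4 X-linked members had medians of -0.51 in S over N and -0.39 in B over N, and Rpl10, the one of them near equal in N, had 763 in S, 837 in B and 823 in N.

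Between the bulge libraries the lowest ratio was that of Rpl22l1. It had 37.8 in S, 50.3 in B and 62.7 in N, a log2 ratio of -0.40 in S over B. Rps24 had 806 in S, 973 in B and 978 in N, Rpl6 had 135 in S, 162 in B and 156 in N, and Rps23, which lines the decoding centre, had 539 in S, 639 in B and 544 in N. These 3 genes and Rpl31 had log2 ratios of S over B between -0.27 and -0.25. At the other end were Rps27l, Rps2, Rplp2, Rps13 and Rps28, with log2 ratios between 0.11 and 0.19. Rps13 had 442 in S, 400.2 in B and 394 in N.

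Several members have a second copy with a sequence close to the first, and reads can be split between such copies in counting, so their values are uncertain. Rpl22 (ENSMUSG00000028936, chromosome 4, 152325742 to 152334071), needed for alpha-beta T cell development in the mouse, had 548 in S and 839 in N and is listed at 0 in B. Phf3 and Rpl22 were the only protein-coding genes listed at 0 in B with at least 10 in both other libraries, and no such gene was found for S or N. A value of 0 can be a failed estimate in a file without counts, and no ratio with B was made. The paralogue Rpl22l1 (ENSMUSG00000039221, chromosome 3, 28805436 to 28807424) held 6.45% of the sum of both copies in S and 6.95% in N. Its level in B lay between its levels in S and N.

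Rps27l (chromosome 9, 66946086 to 66949516), a copy of Rps27 that p53 induces in human cells, had 170.1 in S, 149 in B and 173 in N. It held 7.40% of the sum of both copies in S, 6.07% in B and 4.19% in N, while its own level was within 1.2-fold in every pair of libraries after adding 1. Rpl7l1 (chromosome 17, 46773907 to 46782656), the mouse relative of a yeast ribosome assembly factor, was the least abundant measured member, with 4.55 in S, 5.02 in B and 2.93 in N. It held 2.60% of its sum with Rpl7 in S, 2.57% in B and 1.14% in N, where Rpl7 itself had 170.5 in S, 190.5 in B and 254 in N. Rpl36al held 36.5%, 35.7% and 35.0% of its sum with Rpl36a in S, B and N. The copies known from germ cells or striated muscle, Rpl10l, Rpl39l and Rpl3l, had at most 0.234 in any library and were at 0 in S.

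Short messages had the lowest ratios to N, among members and among other abundant genes. The principal transcript of the measured members had a median length of 681 bases, against 2785 bases for other protein-coding genes. Members under 500 bases had medians of -0.63 in S over N (18 genes) and -0.52 in B over N (17 genes), and 24 other abundant genes of that length had -0.42 and -0.54. From 500 to 700 bases the members had -0.32 and -0.30, and the other abundant genes -0.18 and -0.29. From 700 to 1000 bases the members had -0.19 and -0.10, and the others -0.09 and -0.15. At 1000 bases or more, members had -0.29 and -0.14 and others -0.02 and -0.13. In S over N the members were below other abundant genes in each length class, and in B over N they were close to them in each. The part of transcript length in the ratios was not tested.

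Across members, log2 ratios were only loosely related to these properties. Spearman's rho of the ratio with length was 0.19 in S over N (79 members) and 0.24 in B over N (78 members), with GC content 0.21 and 0.14, and with the mean level -0.30 and -0.31. Members share libraries, and the mean level contains the values in the ratio, so these are descriptions. Small nucleolar RNA genes lie inside 29 members. The median of S over N was -0.32 with such a gene inside and -0.33 without, and that of B over N -0.29 for both.

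The wider translation machinery was compared through lists chosen with earlier results of these data known. The 4 ribosomal proteins with other symbols, among them Fau, Rack1 and Rpl36al, had medians of -0.47 in S over N and -0.41 in B over N. Rack1, a scaffold on the small subunit, had 315 in S, 353 in B and 442 in N. Fau, a ubiquitin-like fusion with a small subunit protein, was near equal, with 257 in S, 247 in B and 252 in N.

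Translation factors and other TOP messages had medians of -0.25 in S over N, -0.14 in B over N and -0.08 in S over B over 20 genes, none past 2-fold. Pabpc1, the poly(A) binding protein, had 133 in S, 149 in B and 249 in N. Eif3f had 23.4 in S, 24.4 in B and 40.9 in N, and Eif3e had 73.1 in S, 81.8 in B and 114 in N; both are subunits of initiation factor eIF3. Eef1d, an elongation factor subunit, ran the other way, with 63.1 in S, 69.1 in B and 43.0 in N. The 19 other initiation factors had medians of -0.11, -0.20 and 0.07 in the same comparisons, again with none past 2-fold. Eif4a1, the helicase of cap-dependent initiation, had 80.2 in S, 86.0 in B and 142 in N, and Eif5b, which joins the subunits, had 24.0 in S, 19.8 in B and 35.5 in N.

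Of 53 genes for ribosome assembly and RNA polymerase I, 51 were measured and none was past 2-fold. Their medians were -0.23 in S over N, -0.13 in B over N and -0.05 in S over B. In S 34 of 51 were below N and in B 32 of 51, against 48.2% and 52.9% of all genes. Eif6, which keeps the large subunit from joining too early, had 22.5 in S, 26.9 in B and 44.3 in N. Nop58, a box C/D snoRNP protein, had 33.9 in S, 47.0 in B and 62.3 in N. Dkc1, the pseudouridine synthase dyskerin, had 9.53 in S, 14.8 in B and 17.3 in N, and Mrto4, an assembly factor related to Rplp0, had 5.64 in S, 6.89 in B and 9.94 in N. These 4 genes, named for the size of their ratios, were lowest in S and highest in N.

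Host genes of small nucleolar RNAs, whose spliced RNAs often carry a TOP start, had medians of -0.52 in S over N and -0.62 in B over N over 9 genes. Gas5, the most abundant, had 1048 in S, 1056 in B and 1698 in N, and Snhg1 had 146 in S, 128 in B and 209.9 in N. Snhg3, with 3.90 in S, 3.27 in B and 9.09 in N, was the 1 host gene past 2-fold, lower in both. The 78 genes of the mitochondrial ribosome had medians of -0.01 in S over N, -0.05 in B over N and 0.04 in S over B, close to all genes. In that list Mrps18b alone was past 2-fold, with 6.61 in S, 6.46 in B and 16.2 in N.

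**Figure D5:**
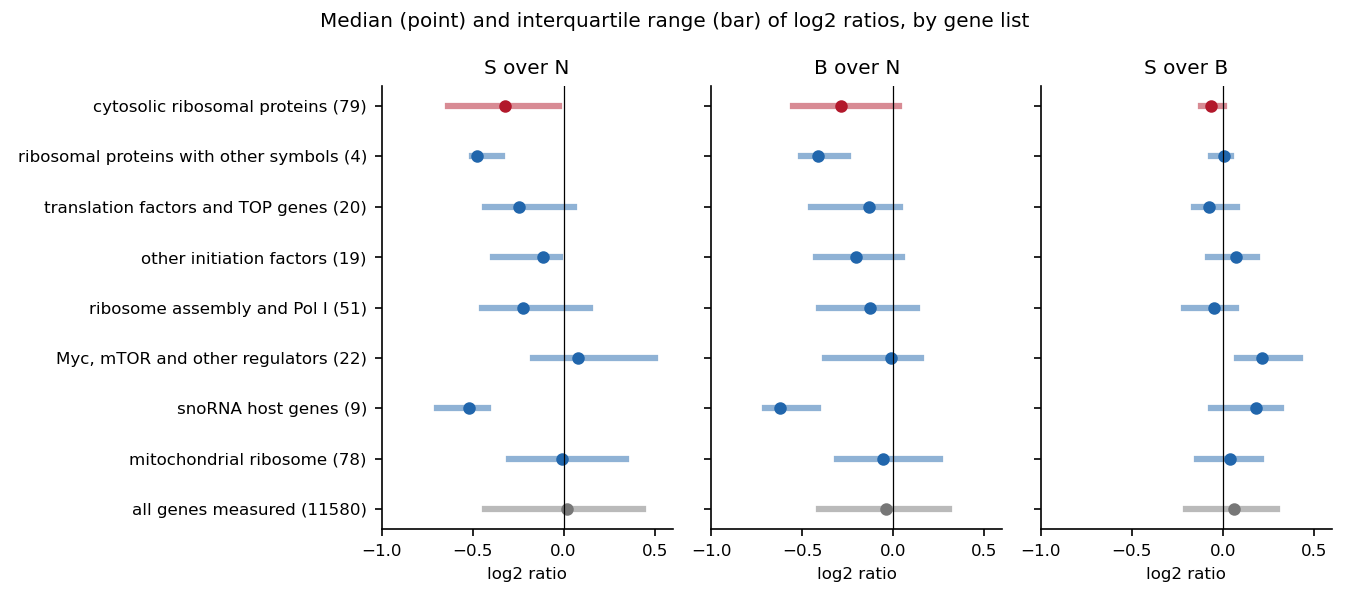
Median (point) and interquartile range (bar) of the log2 ratios of cytosolic ribosomal protein genes (red), related gene lists (blue) and all genes measured (grey) in S over N, B over N and S over B, with the number of genes in S over N in brackets (78 ribosomal protein genes in the comparisons with B). The cytosolic ribosomal proteins (-0.32 and -0.29 against N) and the snoRNA host genes (-0.52 and -0.62) lie left of 0, and the mitochondrial ribosome (-0.01 and -0.05) lies on it.

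Regulators of ribosome synthesis were split in direction relative to N, with 13 of 22 above 0 in S over N and 11 of 22 in B over N. In S over B 18 of 22 were above 0. Of all 11580 genes measured, 5913 were above 0 in S over N, 5388 in B over N and 6596 in S over B. The regulators' median over 22 of 23 genes was 0.08 in S over N, -0.01 in B over N and 0.22 in S over B. Maf1, the repressor of RNA polymerase III, had 12.5 in S, 7.04 in B and 4.17 in N and was 2.61-fold higher in S over N. Mxi1, an antagonist of Myc, had 10.5 in S, 4.61 in B and 3.77 in N, with a ratio of 2.42 in S over N and of 2.06 in S over B. Myc itself had 39.4 in S, 21.3 in B and 37.6 in N. Mycl, named here after its values were seen as the 1 regulator called lower than N, had 0.537 in S, 1.95 in B and 5.33 in N. Eif4ebp2, an inhibitor of the cap-binding protein eIF4E under mTOR control, had 13.6 in S, 12.7 in B and 19.6 in N. The mTOR kinase gene Mtor and Larp1 were each within 1.2-fold in every pair of libraries after adding 1, with levels of 3.28 and 6.64 in S, 3.98 and 5.56 in B, and 3.90 and 6.85 in N.

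Markers of the cell cycle and of several other cell types differed between the bulge libraries and N, in both directions. All 5 cycling markers were at least 2-fold lower in S and in B than in N, and their summed level was 2.60 in S, 13.7 in B and 51.5 in N. Markers of Langerhans and myeloid cells summed to 13.2 in S, 12.8 in B and 42.5 in N, with 4 of the 5 measured 2-fold lower in S and in B. Of 7 T cell markers 1, Thy1, was measured, and their sum was 1.96 in S, 6.07 in B and 19.96 in N, with Cd3d at 0 in S. Differentiated keratinocyte markers summed to 865 in S, 1623 in B and 3565 in N, and interfollicular and upper follicle markers to 1016, 1401 and 2674. Single genes weigh heavily in these sums and can run the other way. Sbsn, of the differentiated list, had 458 in S, 122 in B and 84.4 in N. Krt5, of the interfollicular list, had 954 in S, 805 in B and 813 in N. In S over N, 3 of 6 differentiated markers were 2-fold lower and 1 was 2-fold higher. Of the 7 interfollicular and upper follicle markers, 6 were 2-fold lower. Inner bulge markers summed to 415 in S, 129 in B and 48.0 in N, and Fgf18 had 280 in S, 12.1 in B and 0.147 in N. In S over N, 3 of these 5 markers were 2-fold higher and 2, Timp3 and Krt17, were 2-fold lower. Melanocyte markers summed to 35.2 in S, 17.5 in B and 2.38 in N, nearly all Mitf, with Mlana at 0 in S and N and Dct and Tyrp1 at 0 in N. Sebaceous gland markers summed to 46.2, 39.9 and 49.1, and fibroblast and endothelial markers to at most 2.56 and 0.365 in any library. The part of these cells in the ribosomal protein ratios was not tested.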

How the data were processed

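FPKM values per Ensembl gene were deposited by the authors, 1 file per library and 49452 rows each. The headers give the unit for N and S. For B the header gives only the population's name, and FPKM was taken as its unit from the steps of its low values. The depth of each library was chosen so that these steps came out as whole fragments. At that depth, 95.7% to 97.6% of values under 10 fragments in single-exon genes of at least 3000 bp lay within 0.1 of a whole fragment. By chance 20% would at a depth not so chosen. Any unit in proportion to fragments per length would give such steps, so they do not settle that B is FPKM. Per the submitters' processing notes, TopHat2 2.0.12, Cufflinks 2.1.1, DESeq2 and mm10 belong to the processing, without a stated role. Which annotation and filters were used is not given in the sources used here. Random priming keeps RNA without poly(A), and FPKM of short transcripts depends on how length was corrected.

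Rows of 1 symbol were summed (49109 rows had a symbol, 343 none). Scaling used median-of-ratios factors from 18618 genes above 0 in all libraries. A gene counted as measured at a mean of 1 or more (11580 genes, 9900 of them protein coding), and log2 ratios used a pseudocount of 1, which understates differences of low genes. Biotypes, transcript lengths and GC came from GENCODE M21, where 91.4% of rows had the same position, and start regions from RefSeq. Fragment numbers were approximated from level, length and depth. Calculations used Python 3.11.15, numpy 2.4.6 and pandas 2.3.3 and were tested on simulated data. With 1 library per population no test was possible.

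Named members are the 5 highest and lowest ratios per comparison, all past 2-fold, the 5 highest and lowest mean levels, those at 0 and the paralogue pairs; from other lists, up to 4 genes with the largest ratio among means of at least 5. Members and lists were chosen with earlier results of these data known, and the role groups, their members and the printed start regions after their values were seen. Some genes that fit this rule are not reported here by name; they stay in all counts and medians. Alternatives were 3 other scalings, a pseudocount of 0.1, other filters and a 1.5-fold threshold.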

Additional observations from a re-analysis of the deposited data

How the results depend on the processing

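No paired analysis was possible because each population is 1 library and the labels carry no shared replicate numbers; for the same reason no library could be left out. The median log2 ratios of S over N, B over N and S over B stayed below 0 under every scaling tried. They were -0.58, -0.46 and -0.15 without scaling, -0.36, -0.21 and -0.18 with factors from protein-coding genes with a mean of at least 5 outside the members, and -0.22, -0.14 and -0.11 with equal totals of nuclear protein-coding genes. Without scaling the median of all genes itself shifted to -0.18 in S over N and in B over N. The count of members past 2-fold in S over N was 8, all lower, without scaling. In B over N it was 1, lower, with protein-coding factors and 1, higher, with equal totals. At 1.5-fold the counts were 23 in S over N (1 higher and 22 lower) and 17 in B over N (2 higher and 15 lower). The difference of large and small subunit medians in B over N was 0.25 with no filter on the mean. With the pseudocount of 0.1 or a mean of at least 100 no median, subunit difference or count was marked as moved. Of 69 ratios of 23 named members, 64 to 69 kept their sign under each scaling or pseudocount. In size, 65 of the 69 were marked as moved without scaling, 56 with protein-coding factors and 59 with equal totals. With the pseudocount of 0.1 all 69 were marked as the same. These marks do not measure replicate variation, which 1 library per population cannot give. The main limit is that a population is 1 pooled, amplified library: counting error is small for these abundant messages, and the error between mice and sorts is unknown.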

Other observations

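Rows named as ribosomal protein pseudogenes were numerous but low. Of 273 rows with symbols ending in -ps, 160 had a value above 0 in some library, and together they summed to 448 scaled FPKM in S, 501 in B and 484 in N. That is 1.01% of the members' sum in S, 1.10% in B and 0.820% in N. Among the 6 symbols of the members' form that are not annotated as protein coding, Rps3a2 was the most abundant, with 7.96 in S, 6.72 in B and 11.1 in N. Reads of processed copies and of their parent genes can be split in counting, and the effect on the parent genes was not tested.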
